A study of Mus musculus with 4 samples.

Results

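The transcription factor ATF4, its target genes and the cytosolic aminoacyl-tRNA synthetases were followed in NIH-3T3 cells, an established line of mouse fibroblasts, after exposure to 3 activators of chaperone-mediated autophagy (CMA). The 38 genes were chosen by symbol and fall into 3 arms: 15 stress regulators, 11 enzymes of serine, one-carbon and amino acid metabolism, and 12 tRNA synthetases. Of the 38, 37 had a probe that could be named, out of 36838 gene names on the array, and Pycr1 was not analysed here for want of such a probe. Of these 37, 7 had a second probe, and the brighter one gives each value unless stated.

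The cells carried no genetic change and were grown to confluence. The control culture has no treatment in its label, and each of the others received AR7, CA39 or CA77 at 20 µM for 24 h. CA39 and CA77 are later analogues of AR7, a ligand of the retinoic acid receptor alpha. The compounds were given in DMSO, so solvent and compound cannot be told apart in anything the treated cultures share. There was 1 array per group, hence no replicate culture, and a difference below compares 2 arrays with no test. Levels are normalized signals on the log2 scale, and a difference is 1 array's level minus another's, so that 1 unit is 2-fold. Repeat spots within an array set the measurement tolerance of a difference at 0.16 (log2), or 1.12-fold, which leaves out the spread between cultures. This tolerance is 1 SD of a difference between 2 single spots, so spot error alone can put some differences beyond it.

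ATF4 is the effector of the integrated stress response. When a kinase phosphorylates the translation factor eIF2, general protein synthesis slows while the Atf4 mRNA is translated more, so ATF4 activity can change with little change of its mRNA. ATF4 dimerizes with C/EBP proteins, binds C/EBP-ATF response elements and induces genes for amino acid synthesis, amino acid import and tRNA charging, together with stress regulators such as CHOP (Ddit3) and TRIB3. In fibroblasts the pathway is best known as the response to amino acid shortage and to stress of the endoplasmic reticulum.

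The 4 arrays shared 1 slide. The control lay in a different row of the slide from the other arrays, and CA77 was read in a later scan than the rest, so these positions and the groups cannot be told apart. The share of probes well above background was between 52.2% and 69.7% per array, and 34 to 36 members were detected on an array. Of 8 fibroblast markers, 7 were detected on each array and Pdgfrb was detected on the CA39 array alone. The summed level of this list was 19.73 on control, 19.49 on AR7, 19.91 on CA39 and 19.56 on CA77 (log2). The median difference of its members from control was 0.54 with CA39, against -0.21 for AR7 and -0.28 for CA77, and Col1a1 (1.06 with CA39, -1.04 with AR7), Pdgfra (1.19 with CA39) and Pdgfrb (at least 2.90 with CA39) were past 2-fold from control. Of 10 markers of other cell types with a probe, 6 to 8 were detected per array, with summed levels between 10.34 and 11.43 (log2), the highest with CA39. Cdh1 was not detected on any array, while with CA39 Krt8 was higher by 2.38, Tubb3 by 2.78 and Epcam by at least 1.65 (log2). The median of this list with CA39 was 0.01 over 9 genes, with 4 higher and 2 lower (Gfap and Adgre1) beyond the tolerance. The part of these markers in the results below was not tested, and in bulk RNA fewer cells of a type and less RNA per cell cannot be told apart.

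CA39 was the compound with which the 38 genes differed most from the untreated culture. Of 36 members detected on at least 1 of the 2 arrays, 34 were higher and 2 were lower, with a median difference of 0.35 (log2) against 0.00 over all genes. Of 27894 genes compared in the same way, 10154 were higher and 12598 lower. The shift of the members was graded by arm, with medians of 0.86 for the stress regulators, 0.45 for the enzymes and 0.22 for the synthetases. Fgf21 and Vldlr were detected on the CA39 array alone and so could only come out higher, and without them 32 of 34 members were above control and the median of the stress regulators was 0.69. With AR7 the medians were -0.03, -0.01 and 0.03, and with CA77 they were -0.13, -0.15 and -0.11. Thus, CA77 had 28 of 34 members lower than control, in the opposite direction to CA39, by at most 0.44 (log2). Of 20594 genes detected on all 4 arrays, 11274 were lower than control with CA77.

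Past 2-fold, 7 members were higher with CA39 (Fgf21, Nupr1, Chac1, Vldlr, Trib3, Ddit4 and Cth) and 1 was lower (Gdf15). Over all genes the shares past 2-fold with CA39 were 3.69% higher and 1.16% lower. Among members detected on all 4 arrays, 5 of 34 were past 2-fold higher with CA39, against 2.21% of such genes. No member was past 2-fold with AR7 (0 of 34), where 1.8% of all genes were higher and 0.388% lower, and none was with CA77 (0 of 34), where the shares were 1.93% and 0.548%. These 34 members were detected on all 4 arrays. Of 20594 such genes, 120 were past 2-fold higher and 47 lower with AR7, and 101 higher and 73 lower with CA77. Beyond the tolerance, 29 members were higher with CA39 and 1 was lower, against 20.9% and 27.2% of all genes. With AR7, 6 were higher and 5 lower, against 15% and 17.5%, and with the 75th percentile scaling 3 were higher and 6 lower. With CA77, 1 was higher and 13 were lower, against 19.4% and 25.5%, and 0 were higher with the 75th percentile scaling or the deposited table.

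**Figure D1:**
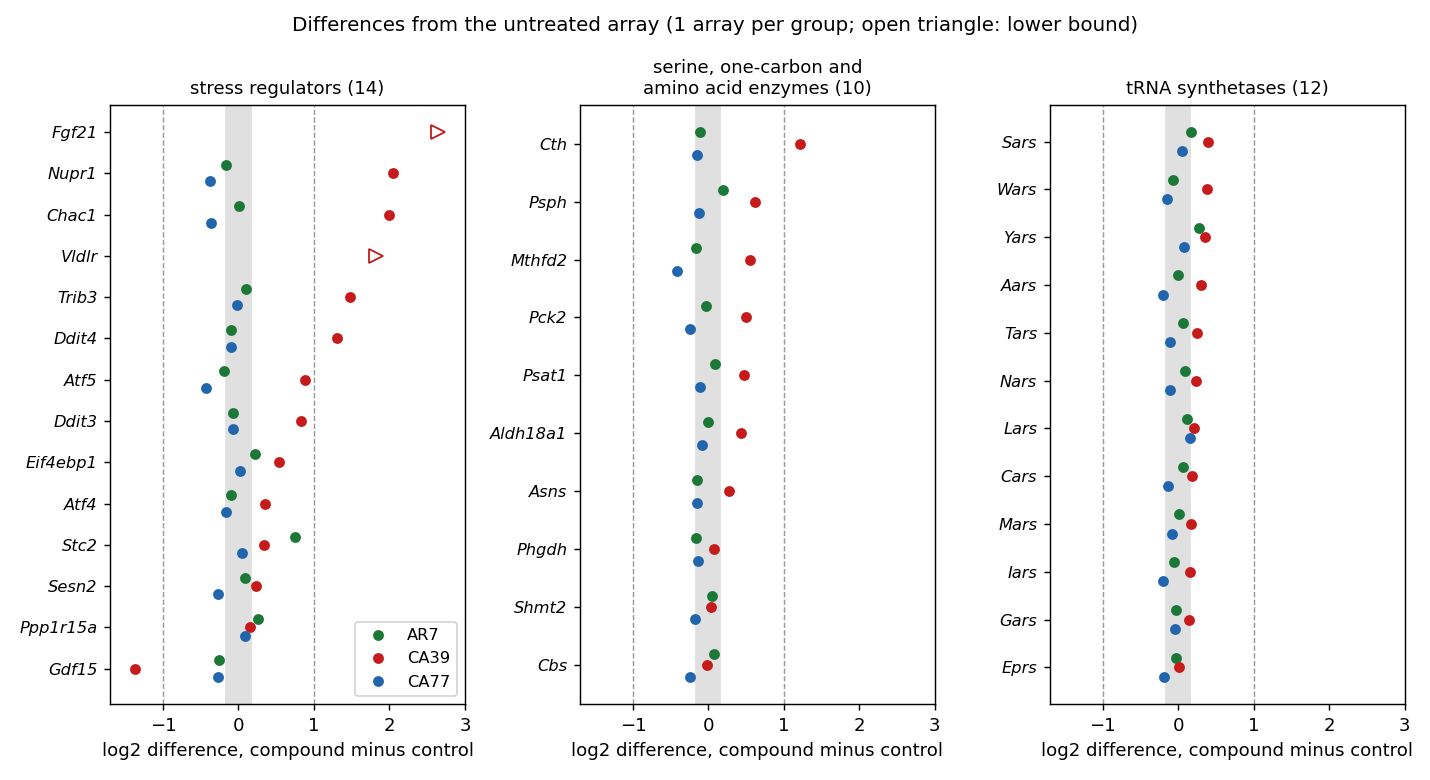
Log2 difference of each member from the untreated array (x axis), in 3 panels by arm and ordered by the CA39 value, with AR7 in green, CA39 in red and CA77 in blue. The grey band is the tolerance of 0.16, the dashed lines mark 2-fold, and open triangles are lower bounds for genes detected on the CA39 array only. The red points spread to the right in the stress regulators, up to 2.64, and keep between 0.01 and 0.39 in the synthetases, while the green and blue points stay within 2-fold of control.

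Among the stress regulators, the largest differences with CA39 were those of known ATF4 targets rather than of the ATF genes themselves. Nupr1 encodes a small stress-induced chromatin protein. Its level was 13.07 on control, 12.91 on AR7, 15.12 on CA39 and 12.70 on CA77. CA39 was 4.13-fold above control (log2 difference of 2.05), which placed Nupr1 at rank 210 of 21393 genes measured on both arrays, and the other two treated arrays were slightly below control. Chac1 encodes an enzyme that degrades glutathione and is a target of ATF4 and CHOP. It stood at 13.41 on control, 13.42 on AR7, 15.41 on CA39 and 13.05 on CA77, so that CA39 was 3.98-fold above control and AR7 was level with it.

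Fgf21, a secreted hormone of nutrient stress, was not well above background on control, AR7 or CA77 (5.24, 5.28 and 4.80) and was detected on CA39 at 8.52. Against the detection floor, which is the signal at the 1st percentile of detected probes of an array, CA39 was at least 6.25-fold above control. Vldlr, a lipoprotein receptor, followed the same pattern, with 5.46 on control, 5.24 on AR7 and 5.88 on CA77, all not well above background, and 7.70 on CA39, which was at least 3.54-fold above control. A second Vldlr probe was not detected on any array, so the value rests on 1 probe. With a background offset of 50 the log2 bounds were 1.94 for Fgf21 and 1.25 for Vldlr. Other scalings, which change the levels themselves, gave bounds of up to 3.92 and 3.19. Atf3, a transcription factor induced by ATF4, was likewise not well above background on any array (5.46, 5.72, 5.40 and 5.22).

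The promoters of these genes are shown because many of them hold the core of the C/EBP-ATF response element, searched here as TGATGNAA on both strands within 250 bases before and 50 after the start of the gene. The sequences are from RefSeq, mouse assembly GRCm38.p6, read along the strand of the gene and ending upstream of its start. Capitals mark the core, which here lies on the other strand and so reads as its reverse complement. Nupr1 is shown from chr7:126625533-126625620 (minus strand), Chac1 from chr2:119351009-119351096 (plus strand), Fgf21 from chr7:45615582-45615669 (minus strand) and Vldlr from chr19:27216780-27216867 (plus strand).
Nupr1: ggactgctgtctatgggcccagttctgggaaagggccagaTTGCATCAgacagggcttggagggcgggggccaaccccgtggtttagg
Chac1: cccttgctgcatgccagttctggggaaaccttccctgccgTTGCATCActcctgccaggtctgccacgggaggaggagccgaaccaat
Fgf21: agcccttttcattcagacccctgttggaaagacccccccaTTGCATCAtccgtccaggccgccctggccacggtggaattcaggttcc
Vldlr: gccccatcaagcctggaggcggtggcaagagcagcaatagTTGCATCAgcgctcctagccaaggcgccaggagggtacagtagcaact
The same 8 bases occur in all of these promoters, in the same orientation, with the first base at -110 in Nupr1, -193 in Chac1, -139 in Fgf21 and -200 in Vldlr, counted from the base before the start site as -1. Vldlr has 2 annotated starts, and the core is in the window of the downstream one and lies past the other start, whose own window holds none. The bases around the core differ between them.

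Trib3 and Ddit4 were the other stress regulators past 2-fold. Trib3, a pseudokinase that binds AKT and ATF4, was at 14.58 on control, 14.68 on AR7, 16.05 on CA39 and 14.55 on CA77, and CA39 was 2.79-fold above control. Its promoter holds the core after the start site, from base 15 to base 22. Ddit4, or REDD1, an inhibitor of mTORC1, was at 14.82 on control, 14.73 on AR7, 16.12 on CA39 and 14.72 on CA77, and CA39 was 2.46-fold above control. In both genes the control, AR7 and CA77 arrays were within the tolerance of each other and the CA39 array stood apart.

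Gdf15 went the other way. It encodes a secreted stress cytokine that ATF4 and CHOP are known to induce. Its level was 8.38 on control, 8.13 on AR7, 7.02 on CA39 and 8.11 on CA77, and CA39 was 2.58-fold below control. The CA39 signal was close to the detection floor of that array (6.87), and the log2 difference ran from -1.10 with a background offset of 50 to -2.03 with the 75th percentile scaling. It was the only member lower than control with CA39 by more than the tolerance.

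Of the transcription factors of the arm, Atf4, Atf5 and Ddit3 were highest on the CA39 array, within 2-fold of control. Atf4 mRNA was at 18.19 on control, 18.08 on AR7, 18.53 on CA39 and 18.02 on CA77, a difference of 0.35 (log2) with CA39, and its second probe gave 0.47 with CA39 and -0.33 with CA77. Atf5, a paralogue of ATF4 with a similar translational control, was at 15.80, 15.60, 16.68 and 15.36 on the same arrays, and CA39 was 1.84-fold above control. Ddit3, which encodes CHOP, was at 11.46, 11.40, 12.30 and 11.39, and CA39 was 1.78-fold above control. Atf5 was also lower than control with AR7 (-0.20) and CA77 (-0.44) by more than the tolerance.

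**Figure D2:**
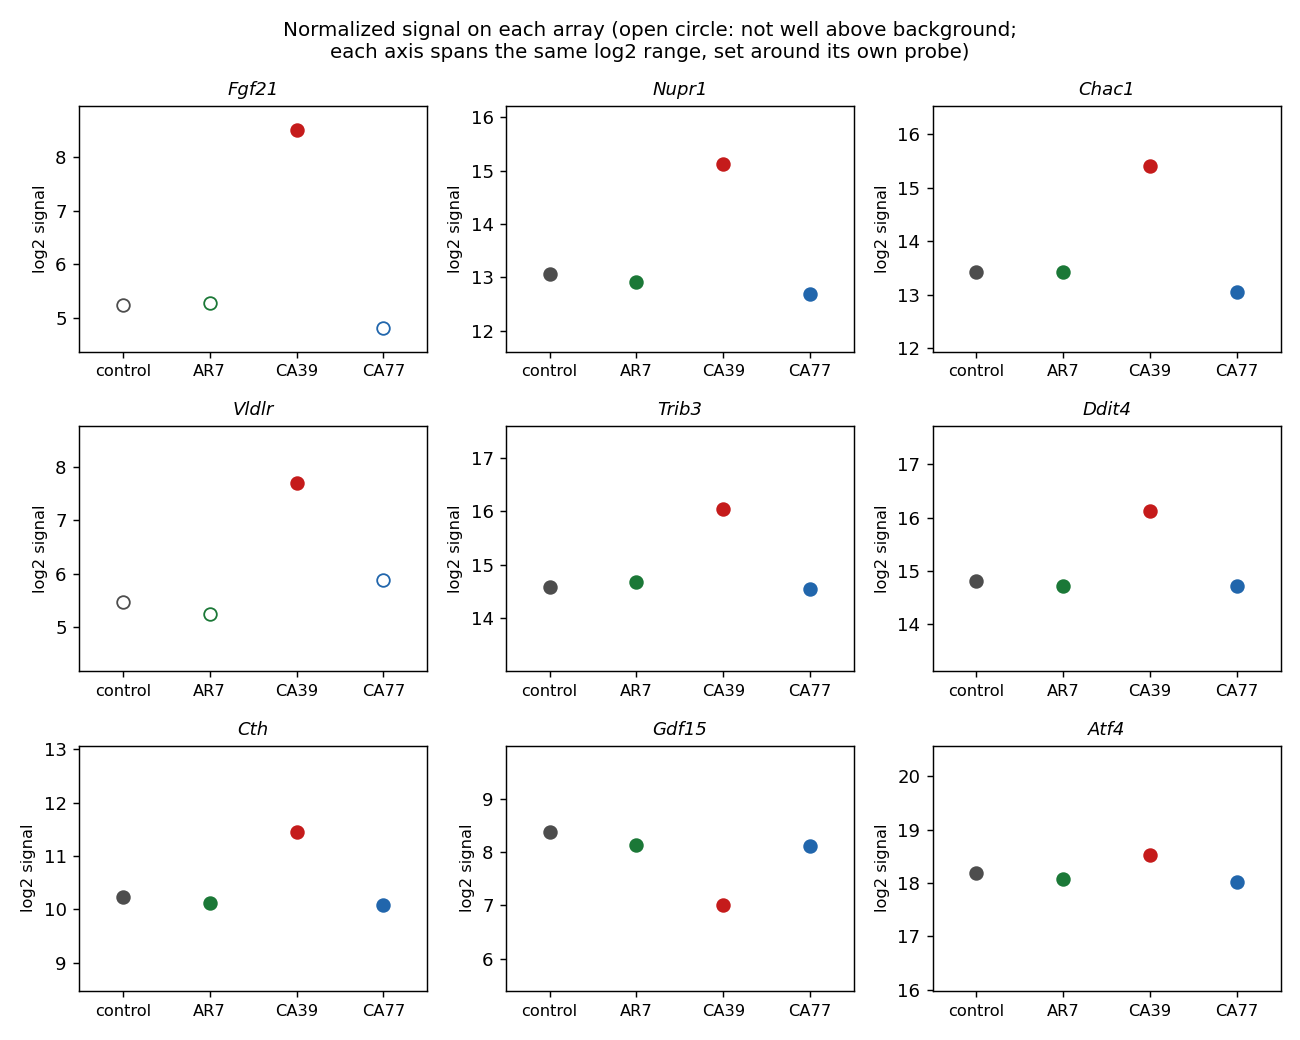
Normalized log2 signal (y axis) on the control, AR7, CA39 and CA77 arrays (x axis) for the 8 members past 2-fold with CA39 and for Atf4, 1 point per array. Open circles were not well above background, and each panel spans the same range of log2 units around its own probe, so heights compare within a panel only. The CA39 point is the highest in every panel but that of Gdf15 (7.02), where it is the lowest.

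The remaining stress regulators were within 2-fold of control with each compound. Eif4ebp1, which encodes the translation repressor 4E-BP1, was higher by 0.54 with CA39 and by 0.21 with AR7, and differed by 0.02 with CA77. Sesn2, a sensor of leucine that restrains mTORC1, had differences of 0.24 with CA39, 0.09 with AR7 and -0.28 with CA77. Ppp1r15a, or GADD34, the subunit that directs the dephosphorylation of eIF2, had 0.26 with AR7, 0.16 with CA39 and 0.09 with CA77. Stc2, a secreted glycoprotein, was the member with the highest value for AR7. It was at 10.82 on control, 11.58 on AR7, 11.15 on CA39 and 10.87 on CA77, and AR7 was 1.69-fold above control, above the CA39 value.

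The enzymes had a narrower range with CA39, from -0.02 (Cbs) to 1.21 (Cth), and 9 of 10 were above control. Cth, which cleaves cystathionine into cysteine, was the member of this arm past 2-fold. It was at 10.24 on control, 10.13 on AR7, 11.45 on CA39 and 10.09 on CA77, a 2.32-fold difference with CA39. The second Cth probe gave 1.31 with CA39 and 0.01 with each of the others. Cbs, which makes the cystathionine that Cth cleaves, was at 8.10 on control and 8.08 on CA39. The consecutive steps of transsulfuration therefore had different values on the CA39 array.

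The serine pathway was also uneven along its steps. Phgdh catalyses the first step, from 3-phosphoglycerate, and its levels were 15.87 on control, 15.71 on AR7, 15.94 on CA39 and 15.73 on CA77. Psat1, the aminotransferase of the second step, was at 16.24, 16.32, 16.71 and 16.12, and Psph, the phosphatase of the last step, at 14.79, 14.98, 15.40 and 14.66. CA39 thus differed from control by 0.08 for Phgdh, 0.47 for Psat1 and 0.62 for Psph, and the second probes gave 0.06, 0.57 and 0.65. In the mitochondrial one-carbon steps that use serine, Shmt2 differed by 0.03 with CA39 while Mthfd2 was higher by 0.55. Mthfd2 was lower than control with AR7 (-0.17) and with CA77 (-0.42).

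Asns, which makes asparagine and is the classic gene of the amino acid response, was at 16.94 on control, 16.79 on AR7, 17.22 on CA39 and 16.79 on CA77, a difference of 0.27 with CA39. Aldh18a1, which starts proline synthesis, was higher by 0.44 with CA39, and differed by 0.00 with AR7 and -0.09 with CA77. Pck2, the mitochondrial phosphoenolpyruvate carboxykinase, was the one member with a probe printed 10 times on each array. Its mean over the spots kept was 9.43 ± 0.06 on control (SD, n = 9 spots), 9.40 ± 0.10 on AR7 (n = 9), 9.92 ± 0.04 on CA39 (n = 9) and 9.19 ± 0.03 on CA77 (n = 7). These spots belong to 1 culture per group. The CA39 spots lay between 9.85 and 9.98, all above the control spots (9.30 to 9.50), and the CA77 spots lay between 9.15 and 9.23, all below them. With CA77 each of the 10 enzymes was below control, with 4 beyond the tolerance (7 with the 75th percentile scaling).

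The promoters of Asns and Pck2 are given to set beside those of the stress regulators. Asns is shown from chr6:7693210-7693272 (minus strand), with the core on the strand of the gene, and Pck2 from chr14:55540123-55540210 (plus strand), with the core on the other strand.
Asns: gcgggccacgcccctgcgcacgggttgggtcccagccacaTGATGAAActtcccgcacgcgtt
Pck2: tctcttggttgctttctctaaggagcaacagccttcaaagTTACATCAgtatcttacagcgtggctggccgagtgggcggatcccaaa
Both fill the free position of the searched core with a base other than that in Nupr1, Chac1, Fgf21 and Vldlr. The core of the unmeasured Pycr1 lies at -103 to -96 of its start.

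The synthetases charge tRNAs with amino acids, and the 12 listed here work in the cytosol. With CA39 all 12 were above control, from 0.01 (Eprs) to 0.39 (Sars), and none was past 2-fold. Beyond the tolerance were 10 of them, counting Iars at the tolerance itself, and Eprs and Gars were below it. Sars, which charges tRNA with serine, was at 15.05 on control, 15.22 on AR7, 15.44 on CA39 and 15.11 on CA77. Wars, for tryptophan, was at 14.77, 14.70, 15.15 and 14.62, and its second probe was higher by 0.27 with CA39 against 0.38 for the first. Yars, for tyrosine, was at 8.91, 9.19, 9.27 and 8.98, and was the synthetase with the highest value for AR7 (0.28).

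Aars, for alanine, differed from control by 0.30 with CA39 and by -0.20 with CA77. Tars (threonine), Nars (asparagine), Lars (leucine), Cars (cysteine), Mars (methionine), Iars (isoleucine) and Gars (glycine) followed with CA39 values of 0.25, 0.23, 0.21, 0.18, 0.17, 0.16 and 0.14. With AR7 the 12 lay between -0.07 (Wars) and 0.28 (Yars), with Sars and Yars beyond the tolerance. With CA77 they lay between -0.21 (Iars) and 0.16 (Lars), and 9 of 12 were below control. These values depended on the scaling. With each array scaled to its 75th percentile, 4 of the 12 were beyond the tolerance with CA39 and the median was 0.10, with 11 above control, while the median of all genes detected on the 4 arrays moved from -0.04 to -0.12.

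Of the synthetase promoters, Aars and Tars are shown, from chr8:111033690-111033777 (plus strand) and chr15:11399659-11399713 (minus strand), because they carry the same 8 bases as the leading stress regulators while their levels differed far less with CA39.
Aars: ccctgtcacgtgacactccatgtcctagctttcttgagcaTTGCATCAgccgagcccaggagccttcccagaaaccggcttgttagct
Tars: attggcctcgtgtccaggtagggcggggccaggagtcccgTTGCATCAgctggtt
Aars has a second core after the start site, from base 10 to base 17. In Gars the core lies at -30 to -23, and in Iars and Yars it begins at base 8 and base 4 after the start.

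In all, a promoter was given for 32 of the 38 genes, and 14 of these (43.75%) held TGATGNAA, against 1219 of 27025 genes with a promoter (4.51%). Among genes detected on any array the share was 3.42%. The members were listed as ATF4 targets and synthetases, and ATF4 binds this element, so the choice of genes itself favours a high share. By arm, the counts were 6 of 14 stress regulators (Atf3, Trib3, Chac1, Fgf21, Vldlr and Nupr1), 3 of 10 enzymes and 5 of 8 synthetases. The narrower TGATGCAA, each match of which is also a match of the wider form, was in 10 of 32 members and in 1.03% of all genes. Of the 15 sites, 11 were before the start and 12 were on the strand opposite to the gene. In the stress regulators with a core, the CA39 differences of the 3 genes measured on both arrays were 1.48 (Trib3), 1.99 (Chac1) and 2.05 (Nupr1), and in the 8 without one they ran from -1.37 to 1.30. Fgf21 and Vldlr, with a core, had a value only through their detection with CA39, and Atf3, with a core, had none. In the enzymes the ranges were 0.27 to 0.50 with a core (2 genes) and -0.02 to 0.62 without (7 genes), and in the synthetases they were 0.14 to 0.36 (5 genes) and 0.01 to 0.39 (3 genes), so that they overlapped in both arms. A match in these windows is no measure of binding, and a gene without a match may hold the element outside its window.

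**Figure D3:**
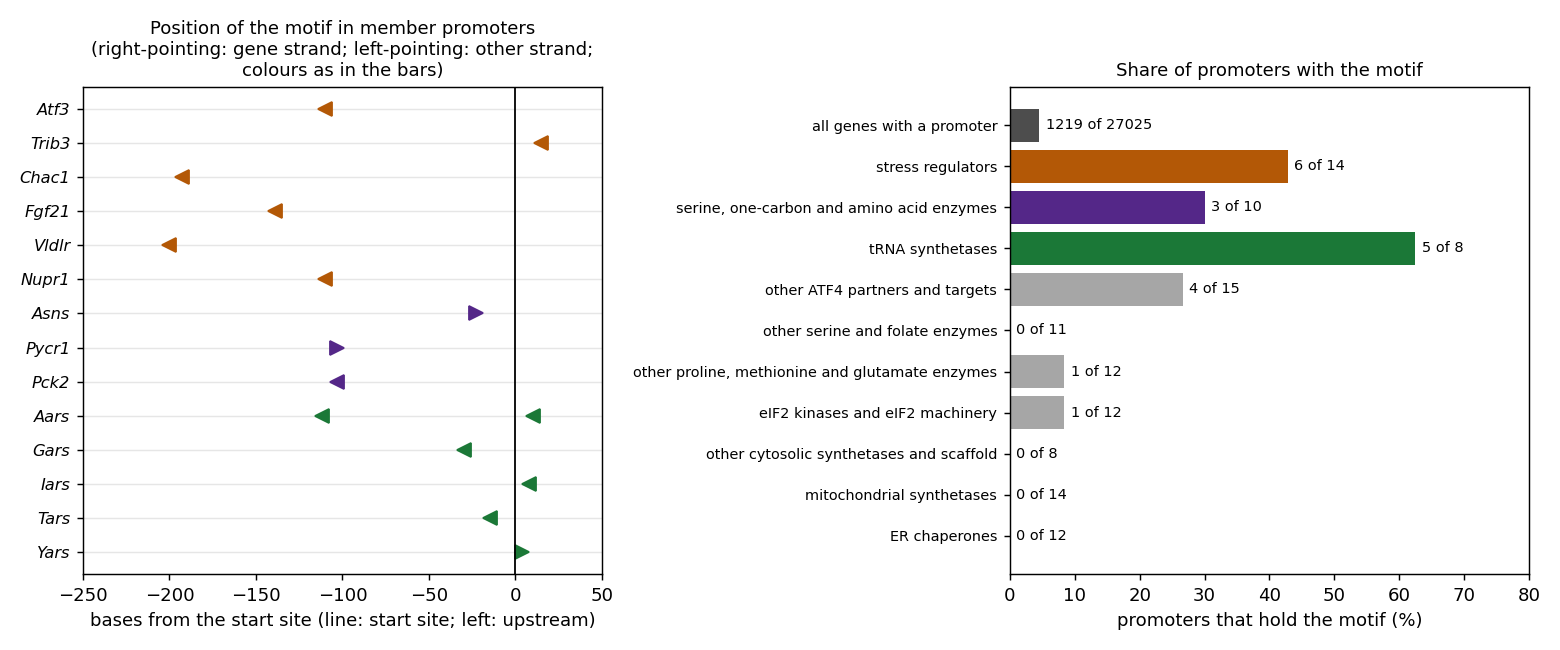
Left, the first base of each match of the searched core relative to the start of the gene (x axis, bases) for the 14 members that hold one, with triangles that point along the strand of the match. Right, the percentage of promoters that hold the core in each gene list and over all genes (4.51%), with counts beside the bars. The 3 arms have 6 of 14, 3 of 10 and 5 of 8, and the other synthetase lists have none.

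Other genes of the pathway, taken from lists of known function, give the setting for the arms. The 8 cytosolic synthetases not among the members and 3 scaffold proteins of the synthetase complex had a median of -0.07 with CA39, with 2 of 11 above control. The 17 mitochondrial synthetases had a median of -0.27 with CA39, with 15 below control and 11 of them beyond the tolerance, and Vars2 had the lowest value (-0.65). With AR7 their median was -0.09 and with CA77 it was -0.10. On the same pair of arrays the 12 member synthetases were all above control. None of the 8 promoters given for the first of these lists and the 14 for the mitochondrial one held the core.

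Of the eIF2 kinases, Eif2ak4 (GCN2), the kinase activated by uncharged tRNA, had the highest value with CA39. It was at 12.84 on control, 12.94 on AR7, 13.48 on CA39 and 12.86 on CA77, a difference of 0.63. With CA39 the heme-regulated Eif2ak1 differed by 0.08, the RNA-activated Eif2ak2 by 0.25 and the endoplasmic reticulum kinase Eif2ak3 (PERK) by 0.27. These are mRNA levels and say nothing of kinase activity. Over the 14 genes of the eIF2 kinases and eIF2 machinery the median with CA39 was 0.03.

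The 20 other partners and targets of ATF4 had a median of 0.34 with CA39, between the synthetases and the enzymes, with 18 above control and 15 beyond the tolerance. Past 2-fold with CA39 were Slc7a11, Slc6a9 and Cebpd. Slc7a11, the cystine importer, was at 6.76 on control, 8.41 on AR7, 8.81 on CA39 and 7.31 on CA77, and so was past 2-fold with AR7 too. Slc6a9, a glycine transporter, was at 14.46, 15.03, 15.94 and 14.57, and Cebpd, a C/EBP transcription factor, at 13.94, 13.46, 14.98 and 13.47. With AR7 and CA77 the medians of the list were 0.05 and -0.07. The chaperones of the endoplasmic reticulum, which answer mainly to ATF6 and XBP1, had medians of -0.27 (AR7), -0.08 (CA39) and -0.15 (CA77), and Hspa5 (BiP) was below control with each compound (-0.45, -0.31 and -0.28).

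**Figure D4:**
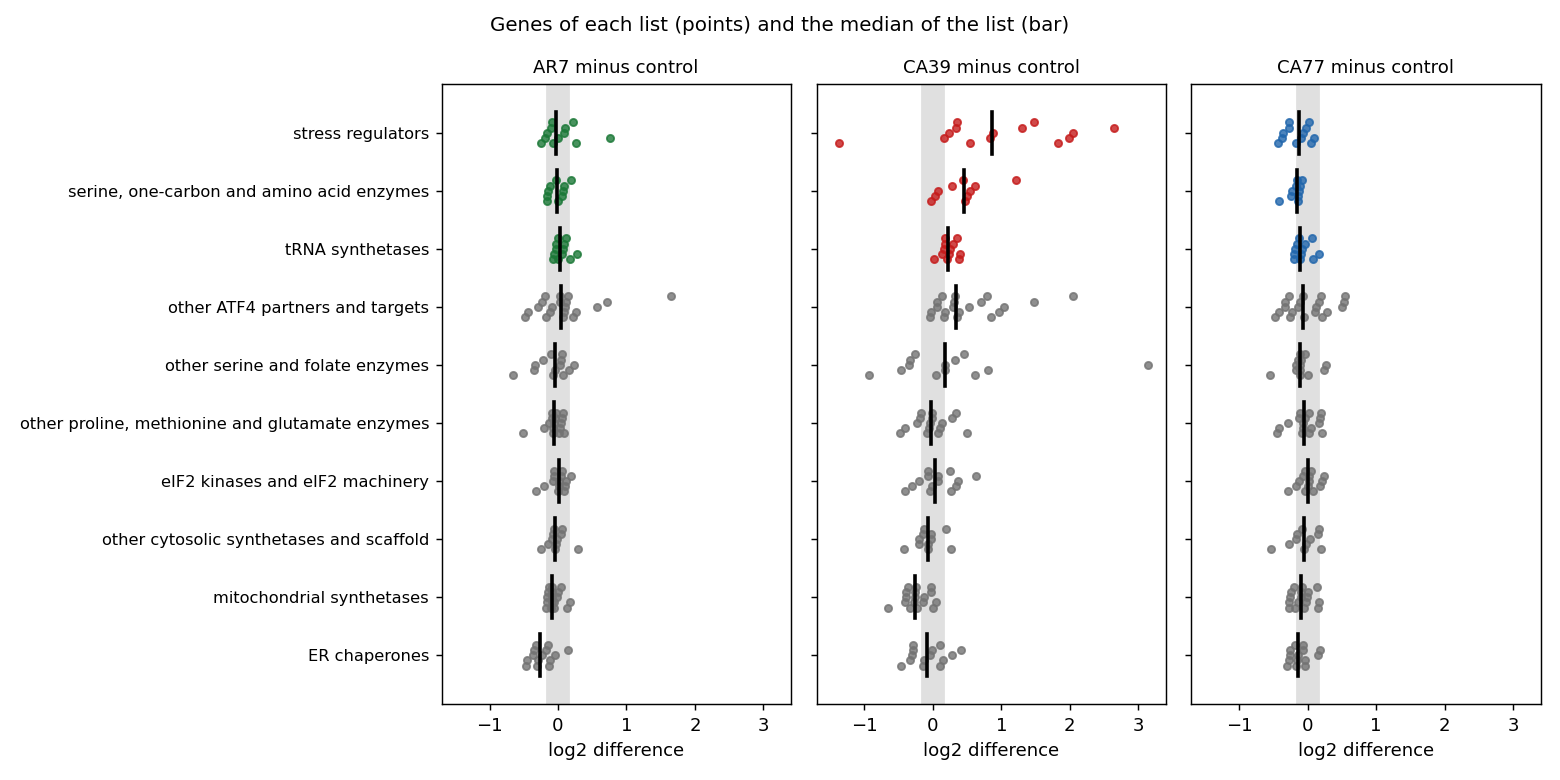
Log2 difference from control (x axis) of the genes of each list (y axis), in a panel per compound. Points are genes, bounds are drawn at their bound, black bars are list medians, coloured points are the members and the grey band is the tolerance of 0.16. With CA39 the medians of the 3 arms are 0.86, 0.45 and 0.22, that of the other ATF4 targets is 0.34 and that of the mitochondrial synthetases is -0.27.

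The related compounds were then set against each other at their matched dose and time, in 3 pairs, with no interval since each has 1 array. CA39 exceeded AR7 in 31 of 36 members, with a median of 0.31, and exceeded CA77 in 35 of 36, with a median of 0.50. Without Fgf21 and Vldlr, which entered only through their detection with CA39, the counts were 29 of 34 (median of 0.27) and 33 of 34 (median of 0.46). Over all genes, CA39 exceeded AR7 in 10378 of 23075 (median of -0.03) and CA77 in 10975 of 25457 (median of 0.00). Past 2-fold above AR7 were 7 members, namely Nupr1, Chac1, Fgf21, Ddit4, Trib3, Cth and Atf5, and past 2-fold below it was Gdf15, where 3.72% of all genes were higher and 2.43% lower. With other processing settings the Atf5 difference from AR7 was as low as 0.92 (log2), short of 2-fold. Against CA77 there were 8 higher, with Vldlr added, and Gdf15 again lower, where the shares were 3.98% and 2.24%. Among members detected on all 4 arrays, 6 of 34 were past 2-fold above AR7 and 6 of 34 above CA77, against 2.66% and 2.75% of such genes. Nupr1 was 4.62-fold above its AR7 level and 5.36-fold above its CA77 level on the CA39 array, and Chac1 was 3.97-fold and 5.12-fold above.

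CA77 and AR7 differed little. No member was past 2-fold between them (0 of 34), where 1.16% of all genes were higher with CA77 and 1.4% lower. CA77 was below AR7 in 32 of 34 members, with a median of -0.17 against 0.00 over all genes, and 18 were lower and 0 higher by more than the tolerance, where 19.7% and 15.3% of all genes were. The lowest value was that of Stc2 (-0.71), a 1.63-fold difference. CA77 was the array read in the later scan, so the scan and the small common shift cannot be told apart. All comparisons with 1 array in common share its error, so the values with AR7, CA39 and CA77 against the control are not separate evidence of each other.

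The place of the probes on the array was also considered. Of the 37 members, 20 lay in grid rows 1 to 160 of 384. In the rows over 160, 17 members had a value, with Phgdh read from its second probe. Of these, Chac1, Fgf21, Trib3 and Cth were past 2-fold higher with CA39. The median of the 5 stress regulators with a value there was 1.48, or 0.91 over 4 without Fgf21. The median of all genes in these rows was 0.00, and their share past 2-fold is not given, so the count has no background. The spots surrounding the 8 members past 2-fold had median CA39 differences between -0.10 (Chac1) and 0.06 (Vldlr), so the values of these members were not shared by their neighbours on the array. Around other members the medians went further, with -0.29 around Wars and 0.19 around Eif4ebp1, whose own values were 0.38 and 0.54. Many of the smaller differences, as in the synthetases, are thus of a size that surrounding spots also showed.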

How the data were processed

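Total RNA of 4 NIH-3T3 cultures was labelled with Cy3 and hybridised to 1-colour Agilent mouse arrays, 1 per group. The spot intensities deposited by the authors are linear scanner values from Feature Extraction 10.7.3.1, not normalized between arrays, and the deposited series table repeats the background-subtracted intensity of each of 62976 spots. The study used RMA through oligo (version not given in the sources used here). RMA itself and the study's later gene filters were not applied. As the nearest form, spot medians were corrected for background by the normexp method (offset of 0) in limma 3.58.1 under R 4.3.3. After removal of control spots, arrays were quantile normalized and log2 transformed.

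Outlier spots were dropped (142 to 328 per array), no spot was saturated, and spots of a probe were averaged. The number of arrays, 1 per group, limits the precision. A probe counted as detected if the scanner software called more than 50% of its spots well above background. Accessions were matched without versions to RefSeq GRCm38.p6, which named 27512 of 55378 probes. The brightest probe of a gene was used. An undetected level was set to the 1st percentile of detected signal of its array, from 5.88 (control) to 6.87 (CA39), unless its own was higher, and the difference is then a bound. Past 2-fold means an absolute log2 difference of 1 or more, with detection on either array. The tolerance is the square root of 2 times the median SD over spots of 399 probes printed 10 times. The steps were tested on simulated data.

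The members and lists were chosen with earlier results of these data known. The text names all members, genes of the other lists past 2-fold from control and the 4 eIF2 kinases. Chosen after values were seen were Vars2, Hspa5, Aldh1l2, Tyms, the markers Gfap, Adgre1 and Cdh1, and some second probes. Alternatives covered the background offset, scaling (75th percentile, processed signal, deposited table), floor, mean over probes, grid rows, fold threshold, detection on all 4 arrays and a stricter motif.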

Additional observations from a re-analysis of the deposited data

Results flagged for a closer look

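In 9 members, values lay on opposite sides of the control by the tolerance or more with different compounds. The differences between compounds were not tested, since each compound has 1 array. Atf4 was at 0.35 with CA39 and -0.17 with CA77 (log2 difference from control), and Atf5 was at 0.88 with CA39, -0.20 with AR7 and -0.44 with CA77. Chac1 was at 1.99 with CA39 and -0.36 with CA77. Nupr1 was at 2.05 with CA39, -0.16 with AR7 and -0.38 with CA77. Sesn2 was at 0.24 with CA39 and -0.28 with CA77.

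Among the enzymes, Mthfd2 was at 0.55 with CA39, -0.17 with AR7 and -0.42 with CA77, and Pck2 was at 0.50 with CA39 and -0.24 with CA77. Among the synthetases, Aars was at 0.30 with CA39 and -0.20 with CA77, and Iars was at 0.16 with CA39 and -0.21 with CA77. In each of these genes CA39 was the array above control by the tolerance or more.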

How the results depend on the processing

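Each count, arm median and member difference was recomputed under the alternatives, and no value beyond the tolerance changed sign. Of 126 counts past 2-fold 109 kept within 1.5 times of their value, of 165 arm medians 158 moved by less than the tolerance, and of 1569 member differences 1510 did. Much of this was fixed in advance. Counts of AR7 and CA77 against control and against each other were 0 in the main setting, and 0 against 0 was scored as kept. A floor cannot move a member detected on both arrays, nor a mean over probes a member with 1 probe. The limit to grid rows leaves the values of kept probes as they were. Of 84 recomputed counts beyond the tolerance over all members 76 kept within 1.5 times. The 75th percentile scaling moved that of AR7 higher from 6 to 3 and that of CA39 lower than AR7 from 2 to 4, and the processed signal and the deposited table moved that of AR7 lower from 5 to 3. That of CA77 higher went from 1 to 0 with the 75th percentile scaling and with the deposited table, and to 2 with no floor. By arm, the same scaling by percentile moved the synthetases higher with CA39 from 10 to 4 and the enzymes lower with CA77 from 4 to 7. At a 1.5-fold threshold, members past it were 1 higher with AR7 against control (3.26% of all genes), 13 higher with CA39 against CA77 (8% of all genes), and 1 lower with CA77 against AR7 (2.75%). With grid rows over 160 only, which leaves 17 members with a value, there were 4 higher and 0 lower with CA39 against control, AR7 and CA77 alike, and the medians of the stress regulators were 1.48, 1.38 and 1.5. No share of all genes past 2-fold is given for these rows, here or with the stricter setting next, so the counts have no background. With detection on all 4 arrays also required, a setting chosen after seeing the data that leaves out Fgf21, there were 3 higher and 0 lower in each, and the medians over 4 stress regulators were 0.91, 0.92 and 1.01. Over all grid rows and members detected on all 4 arrays, which leaves out Fgf21 and Vldlr, these medians were 0.69, 0.68 and 0.71. With a background offset of 50, 0 members were past 2-fold lower with CA39 against AR7 or CA77, since Gdf15 dropped out. Without a floor, the median for CA39 against CA77 was 0.91. The causes of the other moves were not tested. No paired analysis was possible because each group has 1 array. Culture, slide position and scan cannot be told apart from the groups, and signals near the background (Fgf21, Vldlr, Gdf15) carry the widest range over settings.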

Other observations

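Folate and serine genes outside the member list were uneven on the CA39 array. Aldh1l1, which oxidizes formyl-tetrahydrofolate in the cytosol, was at 8.46 on control, 7.81 on AR7, 11.60 on CA39 and 7.92 on CA77, a log2 difference of 3.14 with CA39, higher than that of any member measured on both arrays. It was below control with AR7 (-0.65) and CA77 (-0.55). Its mitochondrial counterpart Aldh1l2 was higher by 0.80 with CA39. Tyms, thymidylate synthase, was lower with CA39 (-0.93). The 13 genes of this list with a value had a median of 0.18 with CA39, with 7 higher and 5 lower beyond the tolerance, and none of the 11 promoters given for it held the C/EBP-ATF core. Aldh1l2 and Tyms were named after their values were seen.

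The 16 other proline, methionine and glutamate enzymes had medians of -0.05 with AR7, -0.03 with CA39 and -0.06 with CA77, with none past 2-fold. Of the other ATF4 targets, Slc7a11 was the gene with AR7 past 2-fold above control (1.65) and with CA77 past 2-fold below AR7 (-1.11), unlike the members, which had none past 2-fold in these comparisons.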
